A study of Mus musculus with 4 samples.

Results

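The messenger RNA of 9 connexin genes was followed in mouse dorsal root ganglia, which hold the cell bodies of sensory neurons beside the spinal cord, on 4 Affymetrix mouse arrays of total RNA. Ganglia of one level, called sample-2 ganglia here, had 2 arrays and were set against ganglia of the other level, sample-1 ganglia, also with 2 arrays. The labels give no strain, sex, age or anatomical name for either level, describe both as fresh dissections without any other treatment, and leave unsaid whether the arrays of a level are separate animals. The p-values therefore reflect the spread among these arrays only, and that spread may be technical. The connexins were taken by gene symbol from the platform annotation, which gives them 18 of the 45101 probe sets. They are Gjb6, Gjb2, Gja1, Gjb1, Gjc3, Gja4, Gja5, Gjc1 and Gjd2. Each probe set is a group of probes for one transcript, and its value is the deposited intensity, on a linear scale of arbitrary units with the same trimmed mean on every array. Sample-1 array 2 stood apart in skeletal muscle markers, 10 genes whose summed intensity was 1703 and 1166 on the sample-2 arrays, against 1468 and 7513 on sample-1 arrays 1 and 2.

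Connexins are the proteins of gap junctions. They assemble into hemichannels in the cell membrane, and hemichannels of neighbouring cells dock to form channels through which ions and small molecules pass from cell to cell. In a sensory ganglion, Gja1 (connexin 43) is the connexin best known from satellite glial cells, which wrap the neuron bodies, and is also made by fibroblasts. Gjb1 (connexin 32) and Gjc3 (connexin 29) are made by myelinating Schwann cells, Gjb2 (connexin 26) and Gjb6 (connexin 30) by the leptomeninges that surround the cord and the nerve roots, and Gjb6 also by astrocytes of the central nervous system. Gja4 (connexin 37) and Gja5 (connexin 40) belong to arterial endothelium, Gjc1 (connexin 45) to mural cells of blood vessels, and Gjd2 (connexin 36) to the electrical synapses of neurons. These assignments are background and were not measured here.

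Gjb6 fell in sample-2 ganglia, and it was the 1 connexin past the threshold. Among the tested probe sets, the connexins of leptomeninges, Gjb6 and Gjb2, and the neuronal Gjd2 had the most negative differences. The Schwann cell connexin Gjb1 had a smaller one, and the tested vascular connexins Gja4 and Gjc1 lay near 0. A second Gjc1 probe set, too dim to be tested, was lower in sample-2 ganglia (3.95 and 1.82, against 22.7 and 15.97 in sample-1 ganglia). Differences are of log2(intensity + 16), sample-2 minus sample-1, from a limma fit over all 27022 probe sets above a filter on low signal, with Benjamini-Hochberg adjustment and a threshold of 0.05. Of the 18 connexin probe sets 15 were tested, covering 8 genes. Counted by each gene's brightest tested probe set, 1 of 8 connexins fell and 0 rose, where 0.546% of all 13543 genes fell. On the arrays, 5 of the 8 genes had both sample-2 values below both sample-1 values, where 22.3% of all genes did, and the same 5 had an unadjusted p under 0.05 (limma), where 6.61% of all genes did in this direction. Gja1 was among these genes by its brightest probe set alone, and the levels overlapped in its 5 others. By probe set, 6 of the 15 tested were lower without overlap.

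**Figure D1:**
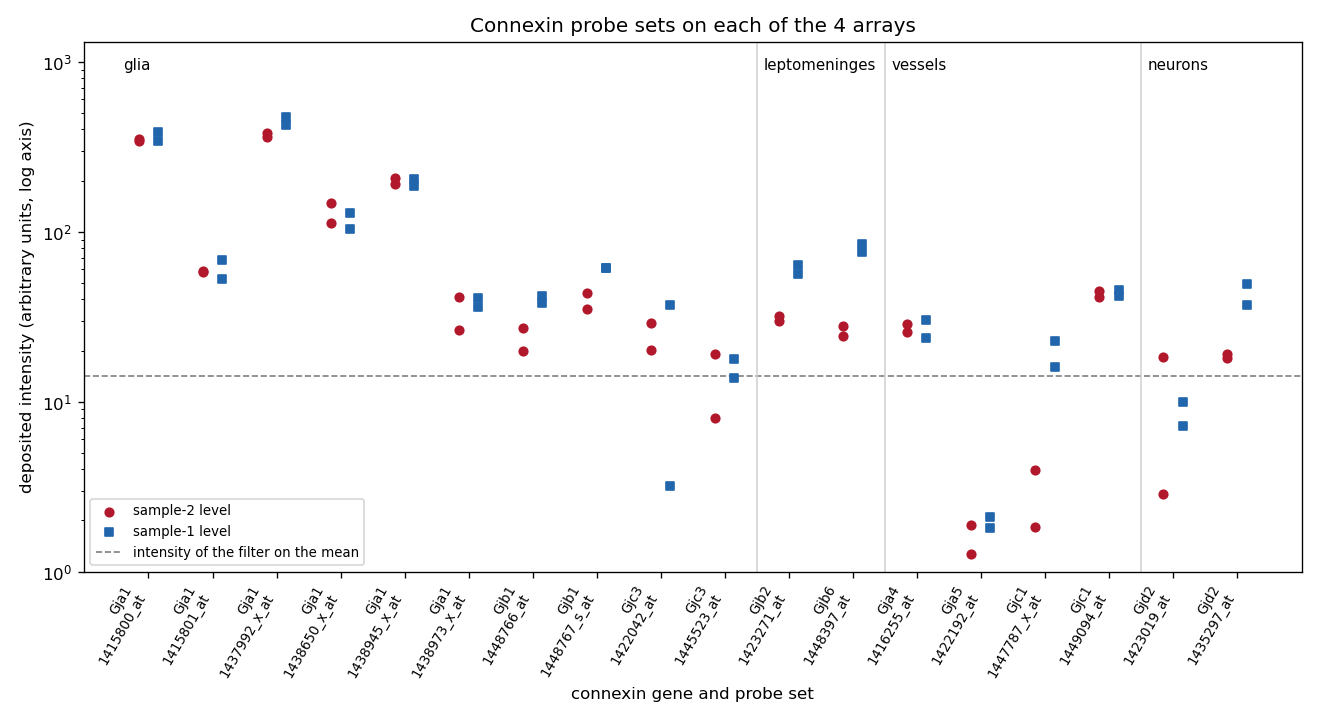
Deposited intensity (log axis, arbitrary units) of the 18 connexin probe sets, with the sample-2 arrays as circles on the left and the sample-1 arrays as squares on the right of each pair. The circles of Gjb6 (24.5 and 27.8) lie below its squares (76.3 and 84.5), while those of Gja4 and of the brighter Gjc1 probe set overlap with their squares, and the dashed line at 14.3 is the intensity that corresponds to the filter on a probe set's mean.

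The upstream sequences of 3 of these genes are shown. Gjb6 and Gjb2 were taken as direct neighbours among protein-coding genes of mouse chromosome 14 (RefSeq, GRCm38.p6) that both lay lower in sample-2 ganglia. Gjb1 was taken as the Schwann cell connexin with the lower values. Each stretch is 300 bases from RefSeq (GRCm38.p6), 250 before a transcript start and 50 from it on, and 8 of the 9 connexins had such an entry. Capitals mark matches on either strand to the TATA box TATAAA, the CCAAT box CCAAT, the GC box GGGCGG and the SOX motif ACAAAG, and no 2 matches shown here overlap. Gjb6 is at chr14:57133562-57133861 and Gjb2 at chr14:57104653-57104952, both on the minus strand. Gjb1 has 4 listed starts, of which the one shown, at chrX:101383482-101383781 on the plus strand, is the one that holds all 4 motifs. The windows of its other starts hold fewer: a CCAAT box and a SOX motif, a CCAAT box alone, and none.
Gjb6: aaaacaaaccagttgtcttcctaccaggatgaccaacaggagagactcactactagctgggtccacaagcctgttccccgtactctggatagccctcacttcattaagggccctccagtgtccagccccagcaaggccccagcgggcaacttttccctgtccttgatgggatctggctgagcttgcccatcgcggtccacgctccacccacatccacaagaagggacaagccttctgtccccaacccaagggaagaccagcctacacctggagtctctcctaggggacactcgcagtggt
Gjb2: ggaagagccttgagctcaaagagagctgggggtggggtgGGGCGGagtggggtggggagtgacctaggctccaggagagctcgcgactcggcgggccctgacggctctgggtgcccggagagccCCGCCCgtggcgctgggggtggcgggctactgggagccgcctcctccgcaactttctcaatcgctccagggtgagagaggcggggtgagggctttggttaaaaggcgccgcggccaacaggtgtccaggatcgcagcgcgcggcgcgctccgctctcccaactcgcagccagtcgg
Gjb1: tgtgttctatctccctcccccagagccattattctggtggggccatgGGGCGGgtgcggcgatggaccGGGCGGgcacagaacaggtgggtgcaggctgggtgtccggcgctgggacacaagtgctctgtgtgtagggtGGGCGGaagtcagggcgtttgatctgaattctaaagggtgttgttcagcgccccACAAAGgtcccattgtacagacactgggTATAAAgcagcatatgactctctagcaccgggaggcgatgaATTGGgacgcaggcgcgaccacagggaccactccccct

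The Gjb6 window held 0 of the 4 motifs, had a GC content of 57.3% and 6 CpG dinucleotides. The Gjb2 window, by contrast, held 2 GC boxes, beginning 211 and 126 bases before the start, with a GC content of 70.0% and 27 CpG dinucleotides. The Gjb1 window held 3 GC boxes, a SOX motif 57 and a TATA box 29 bases before the start, and a CCAAT box in the transcribed part. Among 32851 windows of this length, 13.6% held the TATA box, 37.4% the CCAAT box, 35.7% the GC box and 18.7% the SOX motif, and the median GC content was 52.7%. These are matches of letters in 1 window per gene. No binding was measured.

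Gjb6, the leptomeningeal and astrocytic connexin, had intensities of 27.8 and 24.5 on the sample-2 arrays, against 84.5 and 76.3 on the sample-1 arrays. The levels did not overlap, and the gap between them was several times the distance between arrays of a level. The mean was 26.2 ± 2.33 in sample-2 ganglia and 80.4 ± 5.77 in sample-1 ganglia (SD, n = 2 each), a ratio of 0.325. The files give no detection calls, and this sample-2 mean lies within the range of the arrays' median intensities, 25.9 to 27.3, so it is not known to be above background and the ratio carries that limit. On the log2 scale Gjb6 fell by 1.19 ± 0.19 (SE, adjusted p = 0.0172 by limma), with a 95% interval of -1.60 to -0.79. Because the pseudocount of 16 is large beside these intensities, the fitted difference understates the ratio, and it was -1.58 with a pseudocount of 1. The call was lost with no filter on low signal (adjusted p = 0.288) and without limma's intensity trend (adjusted p = 0.305), at the same difference. Without sample-1 array 1 the adjusted p was 0.0875 (difference -1.13), and over the other arrays left out in turn it was 0.0202 to 0.0489. In RNA from whole ganglia, fewer cells of a type and less RNA per cell cannot be told apart.

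Gjb2, whose protein can combine with that of Gjb6 in the same channel, had intensities of 31.9 and 29.9 on the sample-2 arrays, against 63.6 and 56.3 on the sample-1 arrays. Its levels did not overlap either. The mean was 30.9 ± 1.39 in sample-2 ganglia and 59.98 ± 5.19 in sample-1 ganglia (SD, n = 2 each), a ratio of 0.516. Its log2 difference of -0.69 ± 0.19 did not pass (adjusted p = 0.157 by limma, unadjusted p = 0.00352), with a 95% interval of -1.11 to -0.28. Whether the differences of Gjb6 and Gjb2 differ from each other was not tested.

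Most other genes of the leptomeninges lay lower too. Of 13 tested leptomeningeal markers 12 lay below 0, 2 fell and 0 rose, and the median difference was -0.42. Over all tested genes 51.2% lay below 0 and the median was -0.0059. This list and the marker lists below were chosen with earlier results of these data known. Their counts therefore describe the lists and are no independent evidence of a pattern. Ptgds, a prostaglandin D synthase of the meninges, had 2161 and 2244 in sample-2 ganglia, against 5427 and 4553 in sample-1 ganglia, and fell by 1.17 ± 0.08 (adjusted p = 9.37e-05 by limma). Slc13a4, a sulfate transporter of the meninges, had 24.3 and 21.8 in sample-2 ganglia, against 62.3 and 66.0 in sample-1 ganglia, and fell by 1.04 ± 0.20 (adjusted p = 0.0397 by limma). Its sample-2 values lie below the median intensity of every array and are not known to be above background. Cdh1, an epithelial cadherin on the list, was the 1 marker above 0, at 1508 and 1629 in sample-2 ganglia, against 1432 and 1351 in sample-1 ganglia, and did not pass (adjusted p = 0.469). The summed intensity of the 13 markers was 4316 and 4515 on the sample-2 arrays, against 7793 and 6875 on the sample-1 arrays, and no tested marker was at 0. With any 1 array left out, 1 of the 13 fell. The part of these cells in the Gjb6 and Gjb2 values was not tested.

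Several connective tissue genes fell. Of 11 tested markers of fibroblasts and perineurium all 11 lay below 0 and 5 fell (Col1a2, Col3a1, Dcn, Lum and Mfap5), with a median of -0.45 and summed intensities of 7104 and 6505 in sample-2 ganglia, against 10213 and 9222 in sample-1 ganglia. Without sample-1 array 1 only 1 of them fell, and without sample-2 array 2 only 2. Astrocyte and oligodendrocyte markers, which would come with attached spinal cord, lay on both sides of 0. Of the 6 tested, 3 lay below 0 and 0 passed (limma, 0 also at an unadjusted p under 0.05), with a summed intensity of 227 and 225 in sample-2 ganglia, against 215 and 288 in sample-1 ganglia. The markers with the largest differences were Opalin and Aldh1l1 (adjusted p = 0.702 and 0.613 by limma). Gfap, the astrocyte filament protein, had 9.77 and 24.7 in sample-2 ganglia, against 15.3 and 30.9 in sample-1 ganglia. Their part in the Gjb6 result was not tested.

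**Figure D2:**
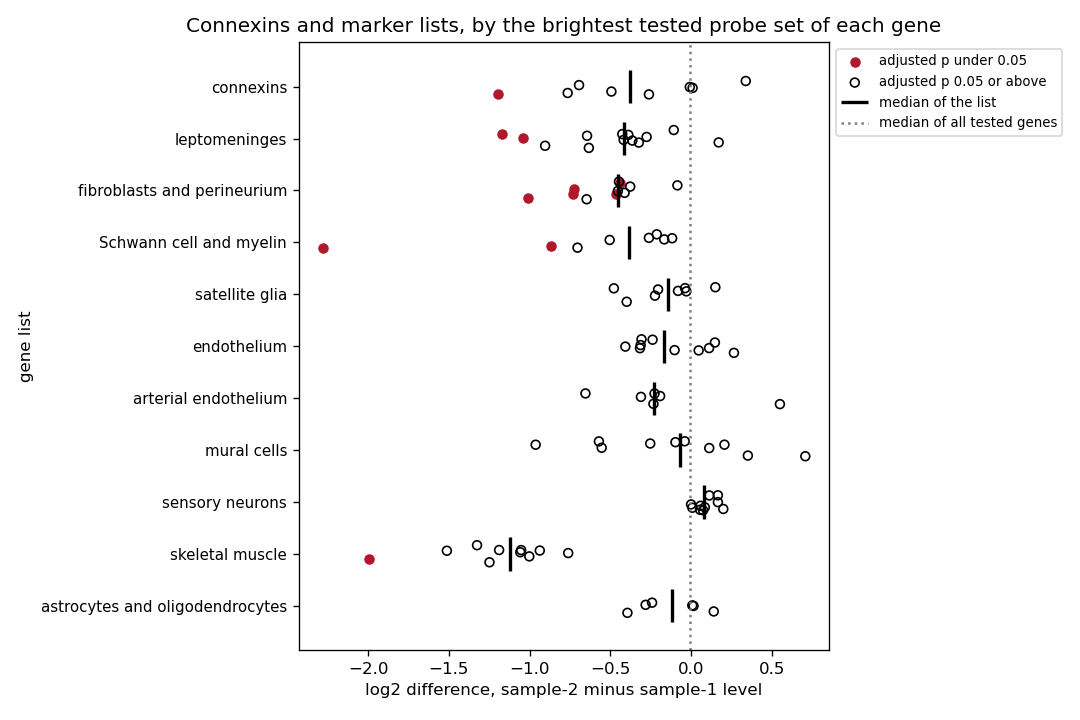
Log2 difference, sample-2 minus sample-1 ganglia, of each gene's brightest tested probe set for the connexins and 10 marker lists, with filled points for adjusted p under 0.05, a bar at each list's median and a dotted line at the median of all tested genes. The medians of the leptomeningeal (-0.42), fibroblast (-0.45) and Schwann cell (-0.38) lists lie near that of the connexins (-0.38), and that of sensory neurons (0.08) lies above 0.

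Of the glial connexins, Gja1 was covered by 6 probe sets, which gave no single direction. Its brightest, 1437992_x_at, had 379 and 360 on the sample-2 arrays, against 471 and 423 on the sample-1 arrays, with no overlap, and a log2 difference of -0.26 ± 0.10 that did not pass (adjusted p = 0.373 by limma). The next brightest, 1415800_at, had 351 and 340 in sample-2 ganglia, against 386 and 343 in sample-1 ganglia, with a difference of -0.07 and a 95% interval of -0.30 to 0.16. Over the 6 probe sets the differences ran from -0.26 to 0.14, 4 below and 2 above 0, and in 5 of them the levels overlapped. The suffix _x_at, carried by 4 of them, marks probe sets that can match more than 1 transcript.

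Satellite glial cell markers had a median difference of -0.14. Of the 8 tested 7 lay below 0, and 0 passed (limma, 1 at an unadjusted p under 0.05). Fabp7, a fatty acid-binding protein of these cells, had 3349 and 3541 in sample-2 ganglia, against 3357 and 3724 in sample-1 ganglia, and overlapped between levels. The markers with the largest differences were Slc1a3, a glutamate transporter, and Sox10, a transcription factor shared with Schwann cells. Slc1a3 had 25.5 and 45.0 in sample-2 ganglia, against 57.6 and 50.7 in sample-1 ganglia (adjusted p = 0.469 by limma). Its probe set carries the suffix _x_at, and its value on sample-2 array 1 lies below the median intensity of every array. Sox10 had 490 and 389 in sample-2 ganglia, against 554 and 608 in sample-1 ganglia (adjusted p = 0.192 by limma).

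Gjb1, the connexin of uncompacted Schwann cell myelin that is mutated in X-linked Charcot-Marie-Tooth disease, was lower on both of its probe sets without passing. The brighter, 1448767_s_at, had 34.9 and 43.4 on the sample-2 arrays, against 61.6 and 61.3 on the sample-1 arrays, and the other, 1448766_at, had 27.1 and 19.8 in sample-2 ganglia, against 42.0 and 38.2 in sample-1 ganglia. Neither overlapped between levels. Their log2 differences were -0.49 ± 0.19 (adjusted p = 0.337 by limma) and -0.51 ± 0.22 (adjusted p = 0.422), and their ratios of means 0.637 and 0.585. The sample-2 mean of 1448766_at lies below the median intensity of every array and is not known to be above background.

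Gjc3, the other Schwann cell connexin, was too variable between arrays to give a direction. Its brighter probe set, 1422042_at, had 20.0 and 29.2 on the sample-2 arrays, against 37.2 and 3.19 on the sample-1 arrays. The sample-1 arrays thus lay on either side of both sample-2 arrays. The difference of 0.34 ± 0.40 (adjusted p = 0.823 by limma) rested on sample-1 array 2 and was -0.40 without it. The second probe set, 1445523_at, had 8.02 and 19.1 in sample-2 ganglia, against 13.8 and 17.9 in sample-1 ganglia, and overlapped too.

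Myelin genes included 2 that fell on their brightest probe set. All 8 tested Schwann cell and myelin markers were below 0, with a median of -0.38. Pmp2, which binds lipids in the myelin of peripheral nerve, had 223 and 121 in sample-2 ganglia, against 959 and 780 in sample-1 ganglia, and Ugt8a, which makes the galactolipids of myelin, had 651 and 456 in sample-2 ganglia, against 1193 and 855 in sample-1 ganglia. Both fell (adjusted p = 0.000366 and 0.0429 by limma). Mbp, the myelin basic protein gene, fell on a probe set other than its brightest, with 1815 and 1309 in sample-2 ganglia, against 2613 and 2310 in sample-1 ganglia (-0.67 ± 0.12, adjusted p = 0.0387). By brightest probe set, 1 marker fell without sample-1 array 1 or without sample-2 array 2, and 3 fell without sample-2 array 1. The markers summed to 19221 and 15151 in sample-2 ganglia, against 21493 and 19532 in sample-1 ganglia, so the levels did not overlap but lay close, and their part in the Gjb1 values was not tested.

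**Figure D3:**
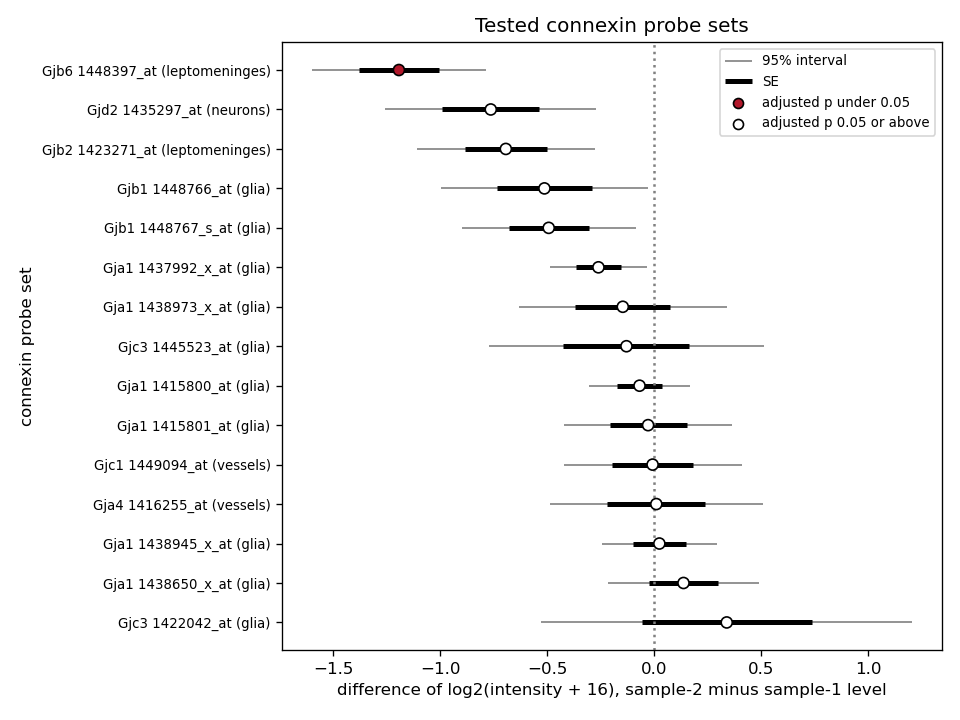
Log2 difference (point), standard error (thick bar) and 95% interval (thin bar) of the 15 tested connexin probe sets, sample-2 minus sample-1 ganglia, ordered by size. The point of Gjb6 at -1.19 alone is filled for an adjusted p under 0.05, and the intervals of 6 probe sets, including both of Gjb1, lie below 0.

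The vascular connexins that could be tested showed no difference beyond the spread between arrays. Gja4, of arterial endothelium, had 25.7 and 28.5 on the sample-2 arrays, against 30.2 and 23.7 on the sample-1 arrays, and the difference of 0.0089 ± 0.23 had a 95% interval of -0.49 to 0.51. The Gja4 means, 27.1 in sample-2 and 26.9 in sample-1 ganglia, lie within the range of the arrays' median intensities, 25.9 to 27.3. Gja4 is thus not known to be above background, and its difference near 0 carries that limit. Gjc1, of mural cells, had 44.9 and 41.4 on its brighter probe set, 1449094_at, in sample-2 ganglia, against 45.3 and 41.7 in sample-1 ganglia, with a difference of -0.0084 ± 0.19 and an interval of -0.42 to 0.41. For both genes the levels overlapped, and differences inside these intervals cannot be told from 0 with 4 arrays. The intervals are not a limit of detection, as the larger difference of Gjb2 (-0.69) did not pass either.

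The second probe set of Gjc1, 1447787_x_at, did not match the first. It had 3.95 and 1.82 in sample-2 ganglia, against 22.7 and 15.97 in sample-1 ganglia, without overlap, but its mean lay under the filter and it was not tested. With no filter its difference was -0.90 ± 0.22 (adjusted p = 0.407 by limma). Gja5, the other arterial connexin, measured 1.88 and 1.28 in sample-2 ganglia, against 2.10 and 1.80 in sample-1 ganglia, under the filter on every array.

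No vascular marker passed. Of 10 endothelial markers 6 lay below 0 and 0 passed (limma, 1 lower and 0 higher at an unadjusted p under 0.05), with a median of -0.17. Of 6 arterial markers 5 lay below 0 and 0 passed (limma, 0 at an unadjusted p under 0.05), with a median of -0.23. Kdr and Cdh5 had the largest endothelial differences (adjusted p = 0.543 and 0.661 by limma), and Dll4 and Bmx the largest arterial ones (adjusted p = 0.479 and 0.498). Of 10 mural cell markers 6 lay below 0 and 0 passed (limma, 4 lower and 2 higher at an unadjusted p under 0.05), with a median of -0.07. The largest mural differences were of opposite sign, -0.96 for Des, an intermediate filament gene that skeletal muscle also expresses, and 0.71 for Myh11, a smooth muscle myosin (adjusted p = 0.307 and 0.238). Rgs5, a pericyte regulator of G-protein signalling, had 2128 and 2183 in sample-2 ganglia, against 1718 and 1655 in sample-1 ganglia, and did not pass (adjusted p = 0.0558). Rgs5 was chosen after its values were seen.

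Gjd2, the connexin of neuronal electrical synapses, had 18.1 and 19.1 on its brighter probe set, 1435297_at, in sample-2 ganglia, against 49.2 and 36.9 in sample-1 ganglia. The levels did not overlap. The mean was 18.6 ± 0.708 in sample-2 ganglia and 43.1 ± 8.68 in sample-1 ganglia (SD, n = 2 each), a ratio of 0.432, and the log2 difference of -0.76 ± 0.23 did not pass (adjusted p = 0.197 by limma). Its 95% interval ran from -1.26 to -0.27. The sample-2 mean lies below the median intensity of every array and is not known to be above background. The other probe set, 1423019_at, had 2.85 and 18.3 in sample-2 ganglia, against 7.22 and 9.94 in sample-1 ganglia, lay under the filter and overlapped between levels.

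General neuronal markers lay on the other side of 0 from Gjd2. Of 10 markers of sensory neurons, among them the RNA-binding protein gene Elavl4, the synaptic protein gene Snap25 and the sensory transcription factor genes Isl1 and Pou4f1, 9 lay above 0, 0 passed (limma, 0 at an unadjusted p under 0.05) and the median was 0.08. All 10 were tested, and their summed intensity was 44396 and 42094 in sample-2 ganglia, against 40836 and 41664 in sample-1 ganglia, so the tissue carried the markers of its label on every array.

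Other connexins gave little signal. Another 5 connexin genes (Gja3, Gja10, Gjb5, Gjd4 and Gje1) were looked at, with 6 probe sets, and 0 of these reached the filter. The highest intensity among them was 24.4, for Gjd4 on sample-2 array 2, against 2.76 on the other sample-2 array and 1.72 and 2.37 on the sample-1 arrays. Pannexins, channel proteins with a similar fold that form few if any junctions between cells, overlapped or lay close. Panx1 had 615 and 595 in sample-2 ganglia, against 540.1 and 603 in sample-1 ganglia, Panx2 had 128 and 114 in sample-2 ganglia, against 131 and 139.8 in sample-1 ganglia, and neither passed (adjusted p = 0.823 and 0.759 by limma), while the 3 probe sets of Panx3 lay under the filter.

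Proteins that scaffold, traffic or degrade connexins had a median difference near 0. Of 13 tested partner genes 6 lay below and 7 above 0, the median was 0.0016 and 0 passed (limma, 1 at an unadjusted p under 0.05). Cav1, the caveolar protein that binds Gja1, had the largest difference, with 852 and 808 in sample-2 ganglia, against 1093 and 1104 in sample-1 ganglia, and did not pass (-0.40 ± 0.08, adjusted p = 0.0588). Dbn1, an actin-binding protein that links Gja1 junctions to the cytoskeleton, had 384 and 418 in sample-2 ganglia, against 442 and 462 in sample-1 ganglia (adjusted p = 0.593). Tjp1, the junctional scaffold that binds the tail of Gja1, had 407 and 342 in sample-2 ganglia, against 388 and 375 in sample-1 ganglia, and was chosen after its values were seen.

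Among 13542 other genes, those whose profile lay nearest to Gjb6 over the 4 arrays were Caln1, Ptgds, Pcdh8, Kcnq1 and Col18a1, by the Euclidean distance between log2 values centred on each gene's mean (0.145 to 0.195). Caln1, a calcium-binding protein of neurons, had 45.3 and 45.7 in sample-2 ganglia, against 134 and 108 in sample-1 ganglia. Kcnq1, a potassium channel subunit, had 4.53 and 6.24 in sample-2 ganglia, against 31.2 and 31.4 in sample-1 ganglia. Both sample-2 values of Kcnq1 lie under the intensity of the filter, which it passed through its sample-1 values. Of the 5 genes Caln1, Ptgds, Pcdh8 and Col18a1 fell, and Kcnq1 did not pass (adjusted p = 0.0856 by limma). They were picked for likeness, so their falls add no evidence on Gjb6, and a match over 4 arrays is a description.

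All 10 tested skeletal muscle markers lay below 0, with a median of -1.12, and 1 of them fell. That was Myh2, a fast myosin, with 2.16 and 11.7 in sample-2 ganglia, against 42.8 and 119.6 in sample-1 ganglia (adjusted p = 0.0319 by limma). Both sample-2 values of Myh2 lie under the intensity of the filter, which the gene passed through its sample-1 values. On sample-1 array 1 alone Myh2 was also above both sample-2 values. Without sample-1 array 2, 5 of the 10 muscle markers lay below 0 and the median was 0.0071. The common direction of the list, though not that of Myh2, thus rested on that array. Without it the connexin differences were -1.25 for Gjb6 (adjusted p = 0.0489 by limma), -0.76 for Gjb2 (adjusted p = 0.319) and -0.91 for Gjd2 (adjusted p = 0.276).

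**Figure D4:**
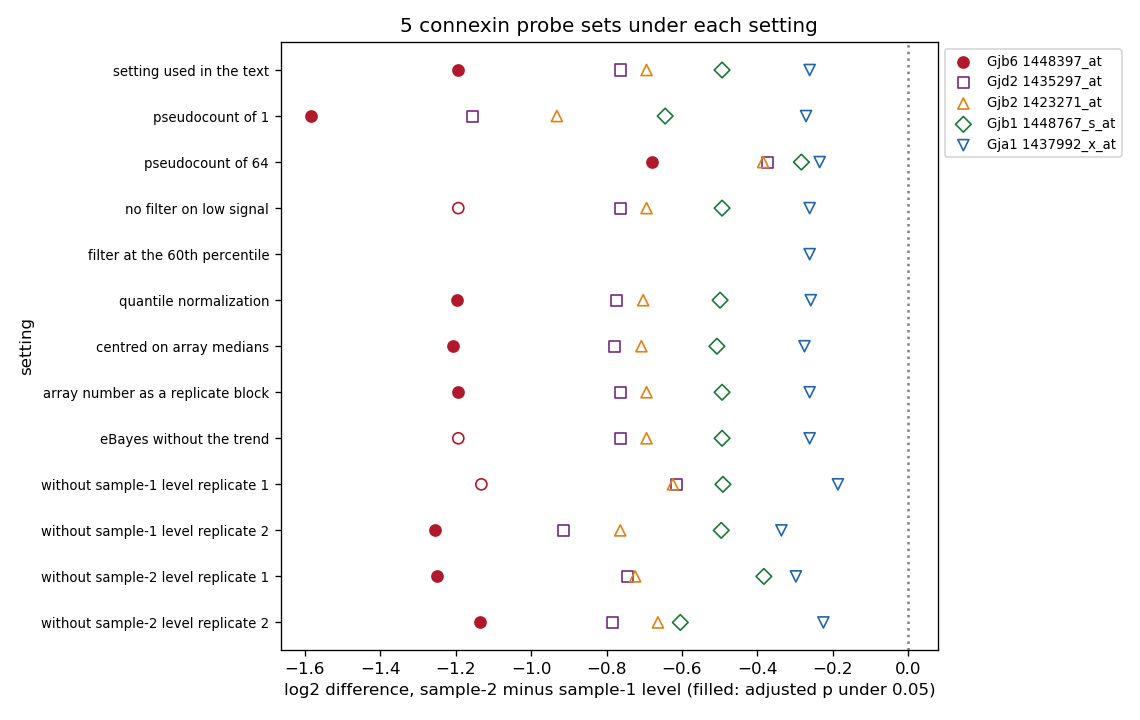
Log2 difference, sample-2 minus sample-1 ganglia, of 5 connexin probe sets under each setting, filled where the adjusted p was under 0.05. All points lie below 0, those of Gjb6 between -1.58 and -0.68, and under the filter at the 60th percentile only the Gja1 probe set was still tested.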

How the data were processed

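Values were the intensity per probe set deposited by the authors, on a linear scale. The mean of each array after trimming 2% of values at each end was 150.0, so all 4 shared one scale when deposited. The software behind the values is not given in the sources used here. There were no detection calls, and the median intensity was 25.9 to 27.3 per array. Across the tested probe sets Pearson's r was 0.987 between the arrays of each level, and 0.982 to 0.986 between levels.

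Intensities were taken as log2(intensity + 16). After 64 control probe sets and those under the 40th percentile of the mean (an intensity of 14.3) were left out, 27022 were fitted with limma 3.58.1 (R 4.3.3, lmFit and eBayes with an intensity trend, no covariate, 2 residual and 9.71 prior degrees of freedom). In simulated data with 27022 probe sets 27.0% of the 1.5-fold, 66.9% of the 2-fold and 94.9% of the 4-fold changes were called, with 5.57% false among all calls. The share of false calls among the probe sets that passed on the deposited arrays was not tested. Each rate pools probe sets without regard to intensity, and the rate at the intensities of the dim connexins was not tested. For such probe sets the pseudocount shrinks the fitted difference. That of Gjb2 was -0.69 with the pseudocount of 16 and -0.93 with a pseudocount of 1.

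All 9 symbols matched RefSeq (GRCm38.p6). The connexins and gene lists were chosen with earlier results of these data known. Named were the connexins and pannexins analysed here, list genes past the threshold or else the 2 with the largest difference, and the 5 genes nearest to a connexin past the threshold. Markers cited for context or counted beyond these were chosen after their values were seen. Alternatives were other pseudocounts, filters, normalizations and spread models, the array number as a block and leaving out each array.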

Additional observations from a re-analysis of the deposited data

How the results depend on the processing

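Gjb6 lay below 0 under all 11 alternatives that tested it and passed under 8. With no filter on low signal, Gja5, Gjc1 1447787_x_at and Gjd2 1423019_at were fitted too. They did not pass (adjusted p = 0.973, 0.407 and 0.983, unadjusted p = 0.818, 0.00518 and 0.876 by limma). The counts that follow leave these probe sets out and take each of the 8 genes by its brightest probe set tested in the main fit. The number of connexin genes past the threshold was 0 with no filter (limma, 5 of 8 at an unadjusted p under 0.05). It was 0 with a filter at the 60th percentile, which tested Gja1 alone, and 0 without the intensity trend (4 of 8 at an unadjusted p under 0.05). Leaving out each array gave 0 to 1. The adjusted p of Gjb6 was 0.288 with no filter and 0.305 without the trend, at a difference of -1.19. Over all probe sets 168 passed, against 4 with no filter, 104 with arrays centred on their medians, 1 without the trend, and 102 to 241 with an array left out. With the array number as a replicate block 793 passed, and for Gjb6 the adjusted p was 0.00085. Over all tested probe sets, same-numbered arrays did not deviate together (correlation 0.03). The labels do not say what the number means, and a link between such arrays in part of the genes was not tested. Gjb2, Gjd2, both Gjb1 probe sets and the brightest of Gja1 kept their sign and passed under no alternative. Signs turned only for probe sets near 0 and for Gjc3. With an array left out, Gja1 1415800_at ran from -0.15 to 0.012, 1415801_at from -0.18 to 0.12, 1438650_x_at from -0.036 to 0.31, 1438945_x_at from -0.038 to 0.085 and 1438973_x_at from -0.36 to 0.069. In the same way Gjc3 1422042_at ran from -0.40 to 1.07, Gja4 from -0.10 to 0.12 and Gjc1 1449094_at from -0.052 to 0.035, while Gjc3 1445523_at, which passed the filter in only one of those fits, the one without sample-2 array 1, was there at 0.14. Gja4 was also -0.0041 with quantile normalization and -0.0048 with median centring. The cause of these changes was not tested. With 1 array left, a level was assumed to vary like the other. Signal limits the dim connexins, whose fitted differences depend on the pseudocount.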
